A study of Mus musculus with 10 samples.

Results

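The genes described here are those through which neurons make and package their main fast transmitters: Slc32a1, Gad1 and Gad2 for the inhibitory transmitters and Slc17a6 for the excitatory one. They were taken by symbol from a table of 15472 genes, and all 4 were found. RNA was sequenced from inner ears of C57BL/6 mouse embryos at E16.5, from 5 samples homozygous for the nmf219 allele of Tbx1 (nmf219/nmf219) and 5 wild-type samples (WT, +/+). Tbx1, a T-box transcription factor, is needed for the inner ear to form. Every cell of the embryo carries the allele. Nothing in the labels ties a sample to its own animal, so the p-values reflect how much these samples vary, which may in part be technical.

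Inhibitory neurons make GABA from glutamate with glutamate decarboxylase, of which Gad1 and Gad2 encode the 2 forms. The vesicular transporter encoded by Slc32a1 loads both GABA and glycine into synaptic vesicles, and neurons of either inhibitory kind depend on it. Slc17a6 encodes a vesicular transporter for glutamate. In the inner ear the neurons of the spiral and vestibular ganglia signal to the brain with glutamate, hair cells load glutamate with the related transporter Slc17a8, and axons that enter from the brainstem carry acetylcholine and GABA while their cell bodies stay outside the ear.

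Of the 4 genes, Slc32a1 was the 1 whose genotypes did not overlap, and it stood at the lowest level of the 4. Its mean was 2.90-fold lower in nmf219 than in WT ears, and every nmf219 library lay below every WT library, as was the case for 0.782% of all genes. Gad1, Gad2 and Slc17a6 had nearly the same means in both genotypes. The lower level of Slc32a1 did not pass the test across all genes with limma, edgeR or voom, while DESeq2 and the authors' deposited table called it. Because Slc32a1 was listed through its WT level alone, it had to be higher there, which limits the calls and the lack of overlap. The noncoding gene Gm14204, which starts next to Slc32a1 on the other strand, was 2.05-fold lower in mean in nmf219 ears. Gm14204 did not pass limma's test either, its genotypes overlapped, and it was singled out after its values were seen.

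Slc32a1 (ENSMUSG00000037771) lies on the plus strand of chromosome 2 at 158610767 to 158615748, Gad1 (ENSMUSG00000070880) on chromosome 2 at 70553072 to 70602014, Gad2 (ENSMUSG00000026787) on chromosome 2 at 22622205 to 22693874 and Slc17a6 (ENSMUSG00000030500) on chromosome 7 at 51622006 to 51671119, all on the plus strand. The deposited positions of all 4 equal those of GENCODE M21 on GRCm38. Gm14204 (ENSMUSG00000086496) runs on the minus strand from 158595472 to 158610723, so that 43 bases separate its start from that of Slc32a1. The 300 bases around the RefSeq start of Slc32a1 (GRCm38.p6, plus strand, 250 bases before the start to 50 after it) are shown because they hold both starts, with the 43 bases between the GENCODE starts of the pair in capitals. The same window of Gad1 is shown beside it as the inhibitory partner gene whose level did not follow, with a match to the TATA box letters TATAAA, on the minus strand, in capitals.
Slc32a1, chr2:158610508-158610807: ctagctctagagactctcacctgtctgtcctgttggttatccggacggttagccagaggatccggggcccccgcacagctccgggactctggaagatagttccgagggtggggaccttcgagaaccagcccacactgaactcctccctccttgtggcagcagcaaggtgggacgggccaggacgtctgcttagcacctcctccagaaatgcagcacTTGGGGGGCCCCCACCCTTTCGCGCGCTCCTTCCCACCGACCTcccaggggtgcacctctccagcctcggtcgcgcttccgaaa
Gad1, chr2:70561879-70562178: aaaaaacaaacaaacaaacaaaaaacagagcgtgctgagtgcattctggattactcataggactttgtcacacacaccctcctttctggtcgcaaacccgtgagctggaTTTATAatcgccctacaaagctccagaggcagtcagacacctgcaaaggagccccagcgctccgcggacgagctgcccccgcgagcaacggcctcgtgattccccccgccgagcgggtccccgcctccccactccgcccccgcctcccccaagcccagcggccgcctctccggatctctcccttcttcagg

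The windows of the inhibitory genes lay above the median of all windows in G and C. Slc32a1 had 63.3% G or C and 17 CG dinucleotides, Gad1 60.0% and 21, and Gad2 61.3% and 14, where the median of 32851 RefSeq windows of this length was 52.7% and 7, with quartiles of 45.7% and 61.7% and of 3 and 20. Beyond the upper quartile lay the G and C share of Slc32a1 and the CG count of Gad1. Slc17a6 has 2 RefSeq starts, whose windows held 8 and 3 CG dinucleotides. The core of the T-box motif, GGTGTGA on either strand, was in none of the 5 windows of the 4 genes, and 3.98% of all windows hold it. TATAAA was in the Gad1 window alone among the 5, against 13.6% of all windows, and the homeobox letters TAATTA, which read the same on both strands, were in 1 Slc17a6 window, against 5.29% of all. The searched motifs do not overlap each other in these windows. A window without a match says only that these letters are not in it.

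The values below are the authors' normalized values, close to counts per 1e6 reads of the listed genes, and 1 read is worth 0.0242 to 0.0286 in nmf219 and 0.0239 to 0.0317 in WT libraries. Depth ranged over 35293445 to 40942278 reads in nmf219 libraries and over 31244799 to 41875972 reads in WT libraries, summed across listed genes. RNA of Tbx1 itself averaged 25.2 ± 2.02 in nmf219 and 24.3 ± 4.08 in WT (SD, n = 5 each), with limma adjusted p = 0.872, so its level does not check the labels. Over all 15472 genes, 13 (0.084%) passed limma's test on log2(value + 1) at a Benjamini-Hochberg adjusted p under 0.05, and 0.0711% were lower and past it. An unadjusted limma p under 0.05 was found in 7.11% of all genes, and the ranges of the 2 genotypes did not overlap in 1.17%. The labelled tissue was checked on 16 hair cell and 16 ganglion neuron markers, all of which were measured; the hair cell markers summed to 260 to 331 in nmf219 and 229 to 332 in WT. Of the hair cell markers 15 were higher and 1 lower in nmf219, with a median log2 fold change of 0.12, 0 past limma's test and 2 at an unadjusted p under 0.05. In bulk RNA fewer cells of a type and less RNA per cell cannot be told apart.

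Slc32a1 was at values of 0.143, 0.460, 0.296, 0.305 and 0.211 in nmf219 replicates 1 to 5, against 0.755, 1.01, 0.666, 1.07 and 0.589 in WT replicates 1 to 5. The highest nmf219 library thus lay below the lowest WT library, and the mean was 0.283 ± 0.119 in nmf219 and 0.820 ± 0.214 in WT (SD, n = 5 each). The log2 fold change was -0.50 (SE 0.10, 95% interval -0.73 to -0.27) on the scale of log2(value + 1), which compresses the change of a gene this low. Its limma adjusted p was 0.199, from an unadjusted p that ranked 37th of the table, and the two-sided exact permutation test of 5 against 5 libraries gave p = 0.00794, the smallest it can give. DESeq2 on the recovered reads gave a log2 fold change of -1.52 (SE 0.36, DESeq2 adjusted p = 0.00842), in a test that called 63 genes (0.407%). On the same reads edgeR (edgeR adjusted p = 0.146) and voom (voom adjusted p = 0.121) did not call Slc32a1. In the authors' deposited table the log2 fold change was -1.52 with an FDR of 2.61e-08, and 505 genes (3.26%) had an FDR under 0.05. Slc32a1 was listed through its WT level alone, as described below, so none of these p-values is free of that selection.

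Few reads stand behind these values. Each nmf219 library had 5 to 19 reads of Slc32a1, and each WT library 19 to 45. Summed over 5 libraries there were 55 reads in nmf219, with an exact Poisson interval of 41.4 to 71.6, and 150 in WT, with an interval of 127 to 176; these intervals cover counting error only. Slc32a1 reached a value of 1 in 0 of 5 nmf219 and 2 of 5 WT libraries. Nearly all genes of the table (15469) reach that value in at least 2 libraries, so the gene was listed through its WT level, and a gene that enters only through one genotype had to be higher there. Of the 304 genes with a mean under 1, the ranges of the genotypes did not overlap in 1.32%.

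**Figure D1:**
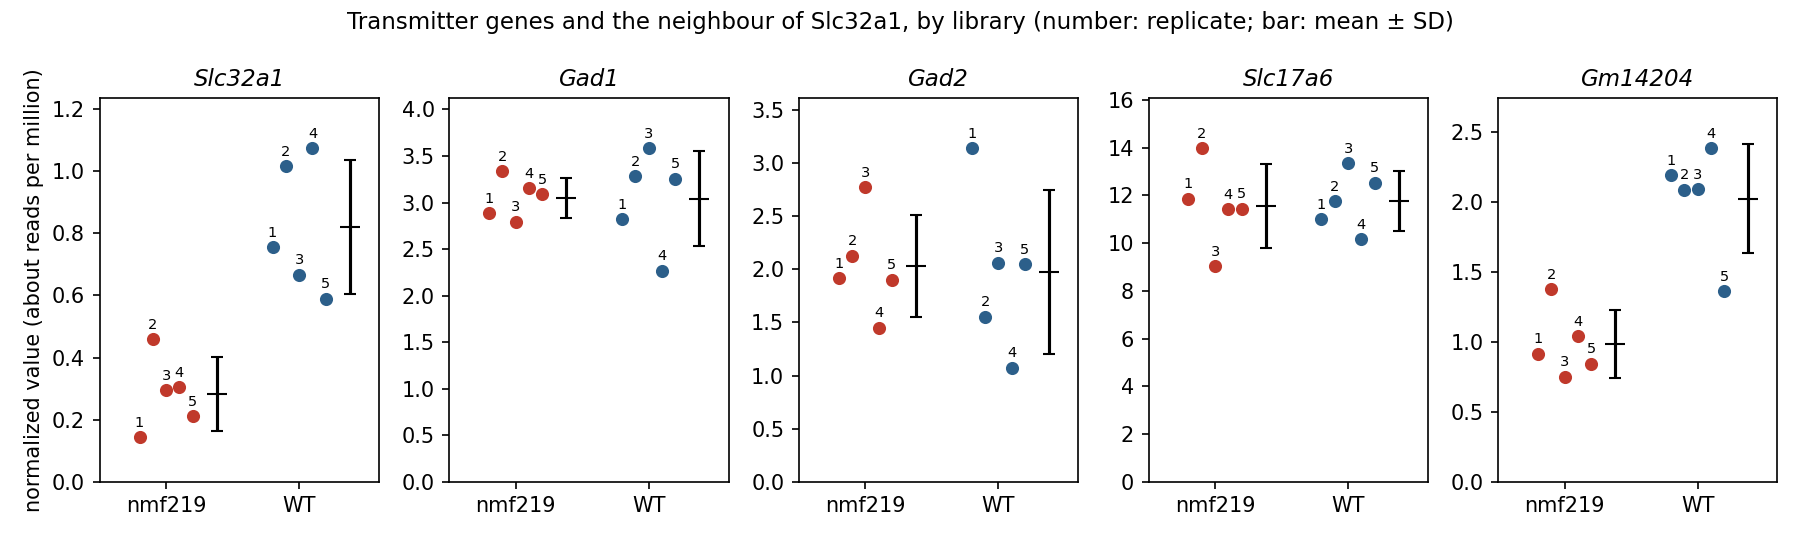
Normalized values (y axis, about reads per 1e6 reads, a separate scale starting at 0 for each gene) of the 4 transmitter genes and of Gm14204 in each library, with nmf219 in red and WT in blue, the replicate number above each point, and the mean ± SD of 5 libraries beside it. The Slc32a1 points of nmf219, 0.143 to 0.460, all sit below those of WT, 0.589 to 1.07, while those of Gad1, Gad2 and Slc17a6 overlap.

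Gad1, which encodes the decarboxylase form found throughout the cell, did not follow Slc32a1. Its values were 2.89, 3.34, 2.80, 3.15 and 3.09 in nmf219 replicates 1 to 5, against 2.82, 3.28, 3.59, 2.27 and 3.26 in WT replicates 1 to 5. The nmf219 libraries lay inside the WT range. The mean was 3.05 ± 0.216 in nmf219 and 3.04 ± 0.512 in WT (SD, n = 5 each), with a log2 fold change of 0.01 (SE 0.09, 95% interval -0.19 to 0.22, limma adjusted p = 0.977; exact permutation p = 0.913).

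Gad2 encodes the decarboxylase form concentrated at nerve terminals. Its values were 1.92, 2.13, 2.77, 1.45 and 1.90 in nmf219 replicates 1 to 5, against 3.14, 1.55, 2.06, 1.07 and 2.05 in WT replicates 1 to 5. The WT libraries held both its highest and its lowest value, in replicates 1 and 4. The mean was 2.03 ± 0.480 in nmf219 and 1.98 ± 0.768 in WT (SD, n = 5 each), and the log2 fold change was 0.05 with an SE of 0.17 (limma adjusted p = 0.946; exact permutation p = 0.802). The 95% interval of -0.32 to 0.43 is the widest of the 4 genes on this scale, so a moderate difference of Gad2 in either direction was not detectable here.

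Slc17a6 was the most abundant of the 4 genes. Its values were 11.9, 14.0, 9.04, 11.4 and 11.4 in nmf219 replicates 1 to 5, against 11.003, 11.8, 13.4, 10.2 and 12.5 in WT replicates 1 to 5. The WT libraries lay inside the nmf219 range, whose ends were replicates 3 and 2. The mean was 11.5 ± 1.76 in nmf219 and 11.8 ± 1.252 in WT (SD, n = 5 each), with a log2 fold change of -0.03 (SE 0.10, 95% interval -0.25 to 0.19, limma adjusted p = 0.945; exact permutation p = 0.794). A single nmf219 library gave 336 to 578 reads of it, and a single WT library 394 to 452.

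Per kilobase of annotated exon the order of the 4 genes was Slc17a6, Gad1, Gad2 and Slc32a1 in both genotypes. Slc17a6 was at 2.14 per kilobase in nmf219 and 2.18 in WT, Gad1 at 0.400 in nmf219 and 0.398 in WT, Gad2 at 0.346 in nmf219 and 0.336 in WT, and Slc32a1 at 0.101 in nmf219 and 0.293 in WT. The ranges of Gad1 and Gad2 overlapped in both genotypes, so their order is not beyond the spread. Slc32a1 overlapped both Gad1 and Gad2 on this scale in WT ears, and lay below both in every nmf219 ear. The 3 inhibitory genes were among the rarer listed transcripts: 25.9% of genes had a lower or equal mean per kilobase than Slc17a6, 4.34% than Gad1, 3.19% than Gad2 and 0.947% than Slc32a1.

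Ratios within a library do not depend on how the libraries were scaled. The value of Slc32a1 over that of Gad1 was 0.0495 to 0.138 (median 0.0968) in nmf219 and 0.181 to 0.474 (median 0.267) in WT, with no overlap. Slc32a1 over Gad2 was 0.0746 to 0.216 in nmf219 and 0.240 to 1.00 in WT, again without overlap. Gad2 over Gad1 was 0.460 to 0.990 in nmf219 and 0.473 to 1.11 in WT, and Slc17a6 over Gad1 was 3.23 to 4.19 in nmf219 and 3.58 to 4.48 in WT. These ratios are given as a description, since they repeat the values above.

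A lower level in nmf219 ears was also seen in the head-to-head neighbour of Slc32a1, which was singled out after its values were seen. Gm14204, a processed transcript with no stated function in the sources used here, was at 0.915, 1.38, 0.753, 1.04 and 0.845 in nmf219 replicates 1 to 5, against 2.19, 2.09, 2.09, 2.39 and 1.37 in WT replicates 1 to 5. The genotypes were separate except that nmf219 replicate 2, at 1.38, just exceeded WT replicate 5, at 1.37; the same libraries were the highest nmf219 and the lowest WT libraries for Slc32a1. The mean was 0.987 ± 0.243 in nmf219 and 2.03 ± 0.388 in WT (SD, n = 5 each), and the log2 fold change was -0.60 with an SE of 0.11 (limma adjusted p = 0.120; exact permutation p = 0.0159). Exons of the pair do not overlap in GENCODE M21. Exons of an antisense gene, Gm14205 at 158610910 to 158611820, do overlap those of Slc32a1, and since the strand setting of the counting is not given in the sources used here, reads of both strands there cannot be told apart; Gm14205 itself was not analysed here. An antisense gene, Gad1os, likewise overlaps Gad1, though not in its exons.

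The other genes around the pair showed smaller differences. Within 250 kb of Slc32a1 the table lists 8 other genes. Slc32a1 was the 1 gene of the 9 whose genotypes did not overlap, as was the case for 1.17% of all genes. Actr5, the next gene downstream, which encodes a chromatin remodelling subunit, was at 13.4 ± 0.697 in nmf219 and 14.9 ± 1.36 in WT (log2 fold change -0.14, limma adjusted p = 0.680). Ppp1r16b had a log2 fold change of 0.09, Fam83d of -0.10, Dhx35 of -0.11, Ralgapb of -0.02, Snhg17 of -0.01 and Snhg11 of 0.23, and none passed limma's test. Actr5 and Dhx35 were at an unadjusted limma p under 0.05, as were 7.11% of all genes. Of the 9 genes 7 had a lower mean in nmf219, where 53.1% of all genes were lower on the log scale. The window was centred on Slc32a1, and the 9 genes include Slc32a1 and Gm14204. Gad1 and Gad2 lie on the same chromosome, far from this pair.

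**Figure D2:**
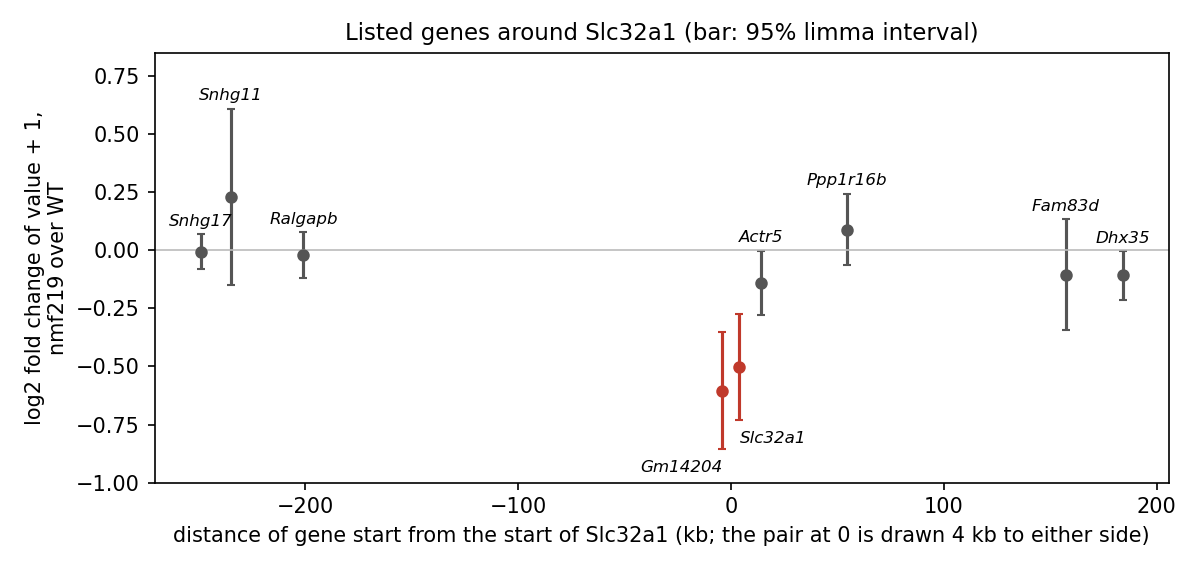
Log2 fold change of nmf219 over WT on the scale of log2(value + 1) (y axis, point, with the 95% limma interval as bar) of the listed genes around Slc32a1, by the distance in kb of each gene's start from the start of Slc32a1 (x axis); both genes of the pair, whose starts nearly coincide, are drawn a little to either side of 0. Gm14204 at -0.60 and Slc32a1 at -0.50, in red, stand below the other genes, which lie between -0.14 and 0.23.

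Across the 10 libraries Gad1 and Slc17a6 tended to be high and low together, which passed the correction as a rank correlation and missed it as a linear one. For log2(value + 1) less its genotype mean, Gad1 and Slc17a6 had Pearson's r = 0.755 (permutation p = 0.0124, adjusted over 6 pairs 0.0742) and Spearman's rho = 0.867 (permutation p = 0.00217, adjusted 0.0130). Without the 2 libraries farthest from the median of Gad1, r was 0.744. The other 5 pairs had r between -0.404 and 0.220, with adjusted permutation p of 0.746 or more for r. Slc32a1 had r = -0.299 with Gad1 and -0.152 with Slc17a6. For Gad1 and Gad2, r was 0.220 over all libraries and -0.598 without the 2 farthest, so its sign rests on those 2.

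**Figure D3:**
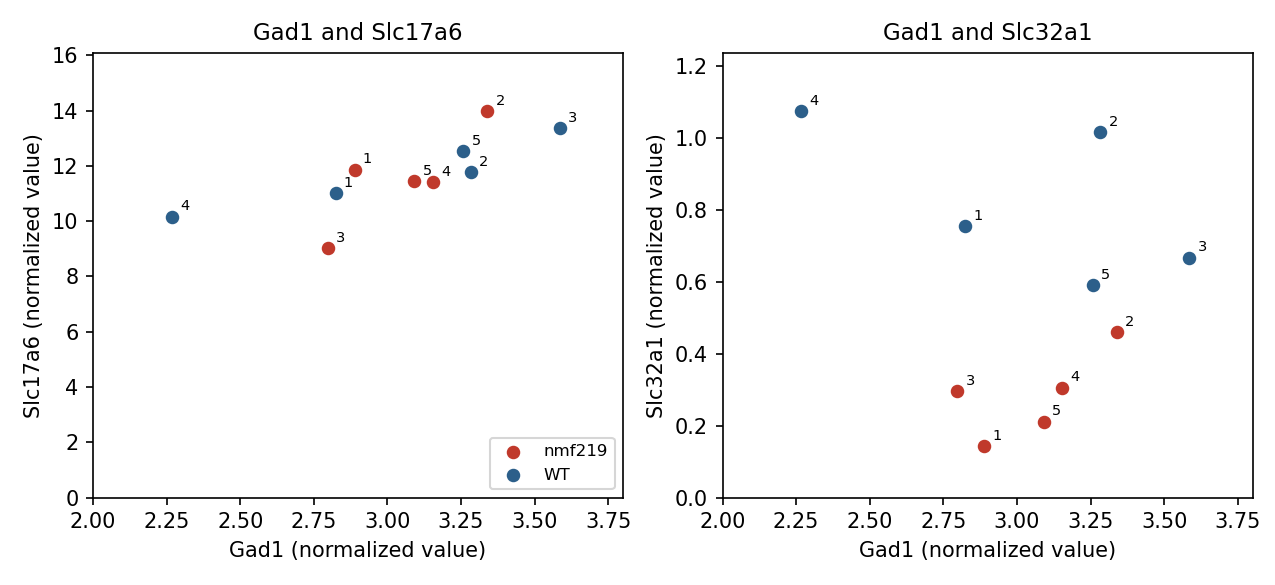
Normalized values per library (both axes, about reads per 1e6 reads; nmf219 red, WT blue, replicate number beside each point) of Slc17a6 against Gad1 and of Slc32a1 against Gad1; the y axes start at 0 and the x axes at 2. Slc17a6 is high where Gad1 is high in both genotypes, while the nmf219 and WT libraries lie apart in Slc32a1 at the same Gad1 level.

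The genes most like each of the 4 in these residuals were found among 15026 named genes with a mean of at least 1, as the 3 with the highest Pearson's r over 10 libraries. For Slc17a6 they were Rab10 (r = 0.983), a vesicle traffic gene, the neurofilament gene Nefm (0.948) and Gng3 (0.937), a G protein subunit of neurons. For Gad1 they were AY512931 (0.956), the phosphatase gene Ptprr (0.955) and Pnma2 (0.953). For Gad2 they were the endothelial receptor gene Kdr (0.932), Ift57 (0.916) and Megf6 (0.906), and for Slc32a1 they were Mfsd3 (0.975), Brip1 (0.951) and Hykk (0.914). The largest of so many correlations over 10 points are high by selection.

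The rest of the inhibitory pathway did not show the difference seen in Slc32a1. Of 12 genes listed for synthesis, transport and breakdown of GABA and glycine, 10 were measured, 6 higher and 4 lower in nmf219, with 0 past limma's test and 1 at an unadjusted p under 0.05, Slc32a1 itself. Over all genes 53.1% were lower and the median log2 fold change was -0.01; the median of the list was 0.01. The enzymes that break GABA down, Abat (62.0 ± 2.19 in nmf219 and 61.5 ± 1.59 in WT, log2 fold change 0.01) and Aldh5a1 (30.6 ± 2.31 in nmf219 and 32.3 ± 1.49 in WT, log2 fold change -0.08), were far more abundant than those that make it. The glycine transporter gene Slc6a9 was at 21.8 ± 2.22 in nmf219 and 21.5 ± 2.03 in WT. The GABA uptake genes Slc6a13 (log2 fold change 0.29, limma adjusted p = 0.785) and Slc6a11 (log2 fold change 0.19, adjusted p 0.788) had the largest differences of the list after Slc32a1 among members with a mean of at least 1. Over all 12 transmitter lists together, edgeR and voom on the recovered reads called 0 genes, and DESeq2 called Slc32a1 here and Pax2 among the factors of inhibitory neurons. Slc6a12 and the neuronal glycine transporter gene Slc6a5 were not analysed here.

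Receptors for the inhibitory transmitters were close to equal in both genotypes. Of 21 GABA receptor genes 15 were measured, 11 higher and 4 lower in nmf219, where 53.1% of all genes were lower. Past limma's test were 0 of the 15, and 0 were at an unadjusted p under 0.05, against 7.11% of all genes. Their median log2 fold change was 0.07. Gabbr1, a subunit of the G protein coupled GABA receptor, was the most abundant, at 144 ± 2.71 in nmf219 and 146 ± 5.40 in WT. Gabre, a subunit of the GABA-gated chloride channel, was at 14.3 ± 0.756 in nmf219 and 13.5 ± 0.901 in WT. Gabrp, at low and scattered values of 1.13 to 3.66 in nmf219 and 0.0955 to 4.19 in WT, had a log2 fold change of 0.42. Of 8 genes of glycine receptors and the inhibitory postsynaptic scaffold, 4 were measured, 2 higher and 2 lower, 0 past the test and 0 at an unadjusted p under 0.05: the glycine receptor subunit gene Glrb had a log2 fold change of 0.03, the scaffold gene Gphn of 0.01 and Nlgn2, which encodes an adhesion protein of inhibitory synapses, of -0.01.

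On the glutamate side, of 14 genes of glutamate synthesis, loading and uptake 13 were measured. Of these 5 were higher and 8 lower, where 53.1% of all genes were lower. Past limma's test were 0 of the 13, and 2 were at an unadjusted p under 0.05, against 7.11% of all genes. Their median log2 fold change was 0.00. The hair cell transporter gene Slc17a8 was at 6.87 ± 1.26 in nmf219 and 5.83 ± 2.04 in WT (log2 fold change 0.24, limma adjusted p = 0.761), and Slc17a7, the third vesicular glutamate transporter gene, at 1.27 ± 0.278 in nmf219 and 0.893 ± 0.224 in WT (log2 fold change 0.26, adjusted p 0.680). The glutamine synthetase gene Glul (166 ± 9.22 in nmf219 and 166 ± 10.9 in WT) and the glutamine carriers Slc38a2 (353 ± 24.9 in nmf219 and 354 ± 36.3 in WT) and Slc38a1 (176 ± 13.5 in nmf219 and 193 ± 13.1 in WT, log2 fold change -0.13, adjusted p 0.680) were the most abundant. Slc38a1 was 1 of the 2 genes at an unadjusted p under 0.05, beside Slc17a7.

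Among ionotropic glutamate receptor genes 16 of 18 were measured, 13 higher and 3 lower in nmf219, where 53.1% of all genes were lower. Past limma's test were 0 of the 16, and 1 gene was at an unadjusted p under 0.05, against 7.11% of all genes. That gene was Gria4, at 24.3 ± 1.78 in nmf219 and 20.1 ± 3.39 in WT (log2 fold change 0.27, limma adjusted p = 0.680). Gria3 (85.6 ± 7.85 in nmf219 and 81.9 ± 9.43 in WT) and the kainate receptor subunit gene Grik5 (89.6 ± 3.27 in nmf219 and 89.4 ± 2.65 in WT) were the most abundant, and Grik3 had a log2 fold change of -0.18. Of 8 metabotropic receptor genes 3 were measured, Grm4, Grm7 and Grm8, all at means between 3.96 and 4.48 in both genotypes and 0 past the test or at an unadjusted p under 0.05.

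**Figure D4:**
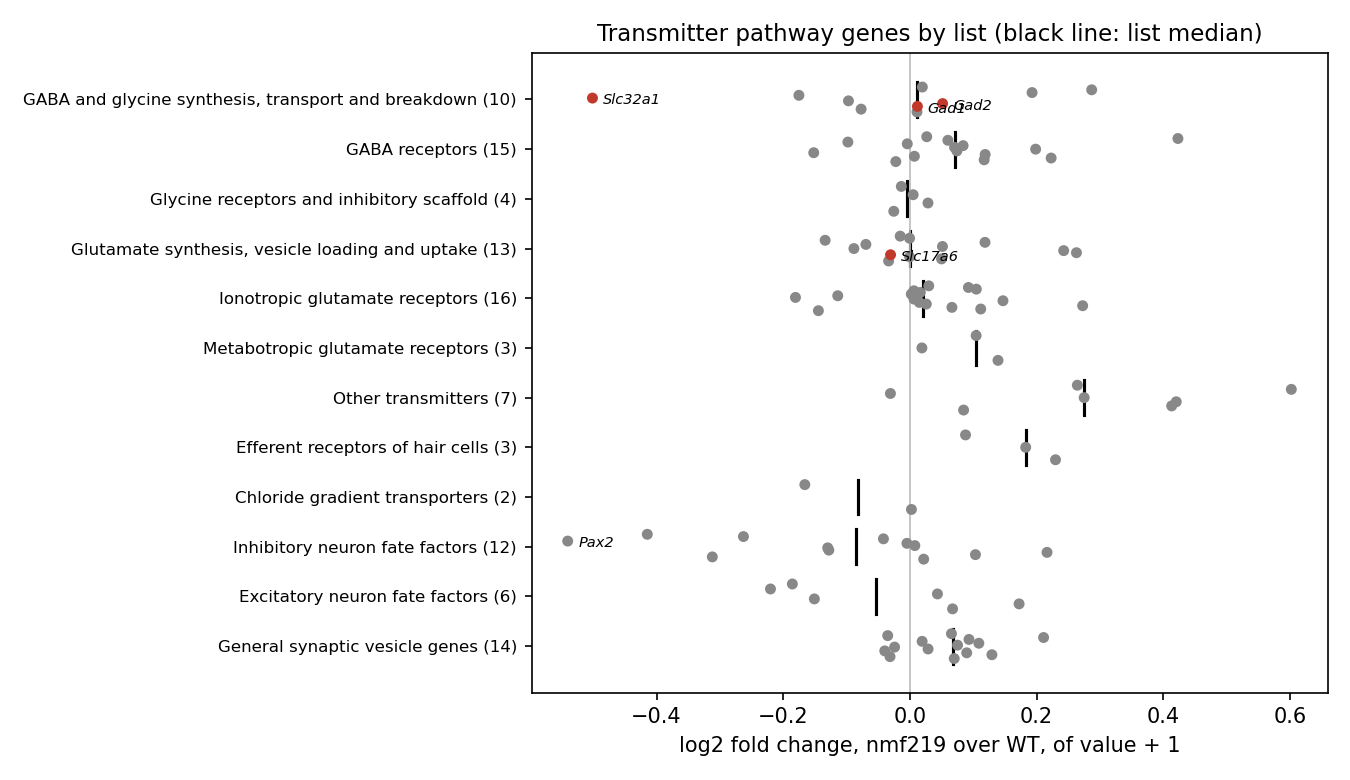
Log2 fold change of nmf219 over WT on the scale of log2(value + 1) (x axis) of each measured gene of 12 transmitter lists (rows, number measured in parentheses), with the 4 transmitter genes in red and the list median as a black line. Slc32a1 at -0.50 stands apart from its list, whose median is 0.01, and Gad1, Gad2 and Slc17a6 lie near 0.

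Genes of other transmitters and of the neurons themselves were compared as a background to these values. Of 13 genes of acetylcholine and amine transmission 7 were measured, 6 higher and 1 lower, where 53.1% of all genes were lower. Past limma's test were 0 of the 7, and 2 were at an unadjusted p under 0.05, against 7.11% of all genes. Their median log2 fold change was 0.28. Ddc, which completes the synthesis of dopamine and serotonin, was at 5.56 ± 1.35 in nmf219 and 3.87 ± 0.834 in WT (log2 fold change 0.42, limma adjusted p = 0.680), the noradrenaline transporter gene Slc6a2 at 4.09 ± 3.01 in nmf219 and 2.29 ± 1.93 in WT (log2 fold change 0.60, adjusted p 0.727), and the choline transporter gene Slc5a7 at 12.2 ± 0.634 in nmf219 and 12.5 ± 0.713 in WT (log2 fold change -0.03, adjusted p 0.886). Ache, whose product breaks down acetylcholine, was at 10.1 ± 0.844 in nmf219 and 9.50 ± 1.39 in WT. The 3 genes through which hair cells receive efferent input were measured at means of 0.654 to 1.53, all higher in nmf219. Of them 0 were past the test or at an unadjusted p under 0.05. Chrna10 had a log2 fold change of 0.23, Chrna9 of 0.18 and Kcnn2 of 0.09. One of the 3, with a mean under 1 over all libraries, was not checked for being listed through 1 genotype alone. A gene so listed had to be higher in that genotype. These genes and Slc17a8, which the hair cell list also holds, are hair cell genes, and 15 of the 16 hair cell markers were higher in nmf219; their part in these values was not tested.

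Of 14 general synaptic vesicle genes all 14 were measured, 10 higher and 4 lower, where 53.1% of all genes were lower. Past limma's test were 0 of the 14, and 0 were at an unadjusted p under 0.05, against 7.11% of all genes. Their median log2 fold change was 0.07. Vamp2 was at 117 ± 9.99 in nmf219 and 112 ± 8.86 in WT and Cplx2 at 67.5 ± 2.46 in nmf219 and 69.0 ± 1.91 in WT, and Syt1 (0.21) and Rab3a (0.13) had the largest differences. The 16 ganglion neuron markers split into 8 higher and 8 lower. Their summed value was 882 to 1111 in nmf219 and 900 to 1050 in WT. The chloride transporter genes that set how a neuron responds to GABA were at 210 ± 12.3 in nmf219 and 211 ± 25.2 in WT for Slc12a2, and at 7.90 ± 0.813 in nmf219 and 8.97 ± 0.668 in WT for the neuronal Slc12a5 (log2 fold change -0.17, limma adjusted p = 0.680), the 1 of the pair at an unadjusted p under 0.05.

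Several transcription factors that specify inhibitory neurons also act in the ear itself. Of 23 such genes 12 were measured, 4 higher and 8 lower, 0 past limma's test and 4 at an unadjusted p under 0.05, with a median log2 fold change of -0.08. Over all genes 7.11% were at such a p, and in 1.17% the genotypes did not overlap. Pax2, which also patterns the otic epithelium, was at 6.90 ± 1.01 in nmf219 and 10.5 ± 1.70 in WT (log2 fold change -0.54, limma adjusted p = 0.176), and 1 nmf219 library at 8.61 lay above the lowest WT library at 8.47. Gata2 (78.7 ± 4.62 in nmf219 and 86.0 ± 2.40 in WT, log2 fold change -0.13, adjusted p 0.680), Gata3 (76.8 ± 5.39 in nmf219 and 84.7 ± 12.4 in WT, log2 fold change -0.13, adjusted p 0.727) and Dlx1 (14.0 ± 1.79 in nmf219 and 13.8 ± 1.43 in WT, log2 fold change 0.02, adjusted p 0.957) were the most abundant. Tfap2a, at 1.40 ± 0.152 in nmf219 and 1.89 ± 0.303 in WT (log2 fold change -0.26, adjusted p 0.680), was the 1 factor whose genotypes did not overlap, with 1.57 as the highest nmf219 and 1.58 as the lowest WT value, and Dlx2 was at 4.20 ± 0.470 in nmf219 and 5.46 ± 0.685 in WT (log2 fold change -0.31, adjusted p 0.555); both were picked out after their values were seen. Tfap2b was at 0.667 ± 0.250 in nmf219 and 1.77 ± 2.50 in WT (log2 fold change -0.41, adjusted p 0.787), a WT mean that rests on replicate 3, at 6.22. The factors that mark inhibitory neurons of the hindbrain and spinal cord, among them Ptf1a, Lhx1, Lhx5 and Lbx1, were not analysed here. Of 15 factors of excitatory neurons 6 were measured, 3 higher and 3 lower, 0 past the test and 0 at an unadjusted p under 0.05; Isl1 was at 45.3 ± 3.66 in nmf219 and 50.6 ± 5.91 in WT, Pou4f1 had a log2 fold change of -0.19, Neurod1 of -0.22 and Atoh1 of 0.07.

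Markers of tissue that can be carried along with the ear moved between libraries as well, and those of skeletal muscle differed most between the genotypes. The summed value of 10 measured forebrain markers was 83.2 to 90.0 in nmf219 and 84.7 to 100 in WT, with 5 higher and 5 lower, and that of 9 hindbrain and cerebellum markers was 233 to 262 in nmf219 and 252.4 to 278 in WT, with 4 higher and 5 lower; Zic1, at 104 ± 6.66 in nmf219 and 122 ± 4.61 in WT, was the 1 of these without overlap and was picked out after its values were seen. Markers defining cortical neurons (Tbr1, Neurod2, Neurod6) were not analysed here. The sum of 7 choroid plexus markers was 45.2 to 57.3 in nmf219 and 43.5 to 274 in WT, with 2 higher and 5 lower. The sum of 17 skeletal muscle markers was 1042 to 4213 in nmf219 and 172 to 2610 in WT, with all 17 higher in nmf219. Of the muscle markers 14 were at an unadjusted limma p under 0.05, with a median log2 fold change of 1.59. Each of the other 3 lists had 2 genes at such a p. Over all genes 7.11% were at such a p, and in 1.17% the genotypes did not overlap. Limma called 0 genes of these 4 lists, as did edgeR and voom, while DESeq2 called Zic1 and the choroid plexus marker Otx2, named here for that call, which was at 5.27 ± 1.11 in nmf219 and 9.72 ± 2.86 in WT. With the brain markers as a covariate Slc32a1 was at a log2 fold change of -0.52, without WT replicate 1, which held the most choroid plexus RNA, at -0.51, and with the muscle markers as a covariate at -0.39. None of these fits passed limma's test over all genes, as the fit of all 10 libraries did not. RNA of Y-linked genes was found in 0 of 5 nmf219 and 3 of 5 WT libraries, so sex and genotype are partly confounded. With Xist as a covariate Slc32a1 was at -0.53, and with only the 2 WT libraries lacking Y-linked RNA it was at -0.56. Within the 2 ranges of description numbers in the labels, which each hold both genotypes, Slc32a1 was at -0.47 (numbers 2162 to 2169, 3 nmf219 and 2 WT libraries) and at -0.54 (numbers 2199 to 2208).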

How the data were processed

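The authors deposited 1 table of 15472 genes with a value per library, a signal close to counts scaled to 1e6 reads, and, per the file headers, their log2 fold changes, p-values and FDR, with a signed fold change as a score. The sources used here do not name an aligner, counter, build or strand setting. The deposited signal values were whole multiples of 1 step per library within 0.01 read in all 10 columns, which gave read counts for the count tests; an automatic check of low values could show this for 2 columns, so count tests were used as alternatives. In the deposited list, 15469 genes reach a value of 1 in 2 libraries or more.

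The main test was limma 3.58.1 with a mean-variance trend on log2(value + 1) over all genes, with genotype as the term, 5 nmf219 against 5 WT libraries, Benjamini-Hochberg adjustment and a threshold of 0.05. Single genes were also tested by an exact two-sided permutation test. Alternatives were edgeR 4.0.16, DESeq2 1.42.0 and voom on the recovered reads, pseudocounts of 0.1 and 0.5, other scalings, a filter on mean value, blocks, covariates and each library left out. Correlations used 100000 permutations. The fit was tested on simulated data, with changes put only into genes of more reads than Slc32a1 has, so that test does not cover Slc32a1. Poisson intervals and floors cover counting error only.

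The 4 genes and the lists were chosen with earlier results of these data known. Beside the 4 genes and Tbx1, the text names from each pathway list every gene past limma's test, the 3 of highest mean and the 2 of largest absolute log2 fold change at a mean of at least 1, and the 3 genes most like each of the 4; other genes are said to be chosen after their values were seen, and some genes that the rule names are not reported here. Promoter windows are from RefSeq on GRCm38.p6, with a window for each of the 4 genes, and exon lengths from GENCODE M21. Of the symbols, 22 turned into dates were restored, and 136 genes without a symbol stayed in the fit.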

Additional observations from a re-analysis of the deposited data

Results flagged for a closer look

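Among 152 groups of 5 values checked, 11 had 1 library far from the other 4, and chance gives about 1 in 20. None of them was a value of Slc32a1, Gad1, Gad2 or Slc17a6. In nmf219 ears, Slc6a9 was at 25.7 in replicate 3, against 20.5 to 21.4 in the others, Glrb at 18.1 in replicate 4, against 16.09 to 16.7, and Chrna10 at 0.766 in replicate 5, against 1.601 to 1.81. In WT ears, Ache was at 7.04 in replicate 4, against 9.84 to 10.3, Grik5 at 94.1 in replicate 1, against 87.4 to 88.6, Slc6a2 at 5.67 in replicate 2, against 1.00 to 1.999, and Tfap2b at 6.22 in replicate 3, against 0.310 to 1.07.

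The other 4 were marker sums in WT ears. Choroid plexus markers summed to 274 in replicate 1, against 43.5 to 91.9 in the others, and skeletal muscle markers to 2610 in replicate 3, against 172 to 758. Erythroid markers summed to 9693 in replicate 5, against 2571 to 4333, and supporting cell markers to 582 in replicate 4, against 480 to 509.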

How the results depend on the processing

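Slc32a1 was lower in nmf219 in all 26 alternatives that gave it a value, with log2 fold changes of -1.55 to -0.39. This range joins unlike scales, since log2(value + 1) compresses the change of a gene this low and the count tests do not use it. Slc32a1 passed an adjusted p under 0.05 with DESeq2 alone (-1.52, adjusted p = 0.00842). It gave -1.51 with edgeR (adjusted p = 0.146), -1.55 with voom (0.121), -1.29 and -0.75 with pseudocounts of 0.1 and 0.5, and -0.55 to -0.45 with each library left out (limma adjusted p = 0.133 to 0.560). A filter on a mean of at least 1 removed it. Muscle, brain and Hbb-y covariates and the WT libraries without Y-linked RNA were chosen after seeing the data.

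The small differences of the other genes turned sign in places, and the cause was not tested. Gad1 was at -0.094 within description numbers 2162 to 2169, -0.035 with Xist, -0.12 with muscle markers and -0.025 with Hbb-y as covariates, and -0.063 to 0.060 with each library left out. Gad2 was at -0.16 within numbers 2199 to 2208, -0.14 with Xist, -0.072 with muscle markers and -0.045 with Hbb-y, -0.11 against WT libraries without Y-linked RNA, and -0.069 to 0.18 with each library left out. Slc17a6 was at 0.0084 against those WT libraries and -0.098 to 0.047 with each library left out. None of these 3 genes passed any test run.

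The 13 genes called became 63 with DESeq2, 1 within numbers 2162 to 2169, 2 within 2199 to 2208, 2 with Xist, 3 with muscle markers, 33 with Hbb-y, and 7 to 18 with each library left out. Pairing by the replicate numbers in the labels was checked on residuals from the genotype mean, over genes with a mean of at least 1. In these residuals same-numbered libraries correlated at -0.475 to 0.136. Each nmf219 library correlated more highly with a WT library of another number, at 0.156 to 0.641, so the numbers gave no sign of pairing. A replicate block left 2 genes called and Slc32a1 at -0.50 (limma adjusted p = 0.712). List medians moved by less than the spread in 313 of 315 alternatives.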
